A study of Homo sapiens with 8 samples.

Results

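ETV1, ETV4 and ETV5 form the PEA3 group of ETS transcription factors, and their messenger RNA was followed transcript by transcript in 8 libraries of a prostate epithelial cell line. The members were the 3 genes, of 33791 with a matched transcript, and all of their annotated GENCODE v29 transcripts, 48 of the 180253 transcripts listed (23 of ETV1, 11 of ETV4 and 14 of ETV5). The cells were PNT2, an immortalized line from normal human prostate epithelium. RNA-seq was done on 4 groups of 2 libraries, lettered A and B: WT, ERF KD (short hairpin RNA against ERF), CIC KO (Cas9 with a guide against CIC) and CIC-ERF codeletion (a hairpin against ERF together with a CIC guide). Every altered line was a drug-selected cell culture of PNT2, and which hairpin or guide each letter stands for is not given in the sources used here. Nothing states that the letters are separate cultures, so p-values measure the spread between libraries, which may be technical.

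PEA3 factors bind GGAA-centred DNA sites and switch on genes for migration, branching growth and MAP kinase feedback. CIC is a repressor that silences all 3 genes until receptor tyrosine kinase signalling removes it, and ERF is an ETS-family repressor that occupies GGAA sites. In prostate cancer ETV1, ETV4 and ETV5 are also activated by gene fusions, in which the 5′ exons are replaced, so that the first exons of a transcript are of particular interest in these genes.

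Before any change can be read, the targeted genes have to be set against the labels. ERF was at 55.9 and 55.9 CPM (estimated counts scaled to library size) in WT and at 81.2 and 77.8 in ERF KD by label. It was at 18.8 and 11.7 in CIC KO by label and at 11.6 and 10.4 in CIC-ERF codeletion. The group with lowered ERF messenger RNA among the single losses was thus the one with the CIC KO label. CIC was at 128 and 129 CPM in WT, 109 and 109 under the ERF KD label, 132 and 131 under the CIC KO label, and 90.9 and 66.4 in CIC-ERF codeletion. A Cas9 edit can leave the level of a messenger RNA as it was, so CIC alone does not settle the question. The word "labelled" stands before both single losses for this reason, and every direction drawn from them rests on labels that the ERF level goes against. In the names of the deposited tables of the 4 single-loss libraries, the letters that mark the group, not the replicate, are also the reverse of the labels. The single-loss groups may therefore be exchanged, which the values here do not settle.

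The sequences below are those by which the main transcripts can be told apart. They are coding stretches of GENCODE v29 transcripts, GRCh38, minus strand, written 5′ to 3′, with the start codon in capitals where there is one. ETV1 lies at chr7:13891228-13991425, ETV4 at chr17:43527844-43579620 and ETV5 at chr3:186046308-186110318. ETV1-206 and ETV1-210 encode the same protein of 477 residues and open with a 45-base coding stretch at chr7:13989008-13989052, which ETV1-205 shares. ETV1-207 opens instead with an 87-base stretch at chr7:13988680-13988766 and encodes 491 residues. ETV1-205 encodes 454 residues because it skips a 69-base exon at chr7:13911239-13911307.
ETV1-206 opening: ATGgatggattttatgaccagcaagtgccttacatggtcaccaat
ETV1-207 opening: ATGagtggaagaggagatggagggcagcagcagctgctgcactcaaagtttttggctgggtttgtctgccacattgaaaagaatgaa
Exon skipped by ETV1-205: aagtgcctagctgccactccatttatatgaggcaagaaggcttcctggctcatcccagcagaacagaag

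The junction that the skip makes in ETV1-205, shown with the 30 bases that follow it in capitals, is where reads of its own would fall. ETV4-204 makes a similar junction by skipping a 162-base exon at chr17:43533187-43533348 and encodes 430 residues, against 484 for ETV4-201, ETV4-202 and ETV4-211. The coding part of ETV4-203 and ETV4-205, which encode 445 residues, lacks the opening stretch of ETV4-201 at chr17:43545558-43545617 and begins inside the next exon. ETV5 has a single coding form of 510 residues, carried by ETV5-201 and ETV5-206.
ETV1-205 junction: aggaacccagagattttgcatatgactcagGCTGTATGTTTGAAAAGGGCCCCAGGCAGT
ETV4-204 junction: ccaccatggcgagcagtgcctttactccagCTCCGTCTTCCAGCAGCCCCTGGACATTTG
ETV4-201 opening: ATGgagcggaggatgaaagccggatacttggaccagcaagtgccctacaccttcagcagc

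How well reads can be divided differs sharply between these transcripts. A stretch of 31 bases found in a single GENCODE v29 transcript sets a read apart from the other transcripts of that release. GENCODE v29 held 153245 of the 180253 transcripts listed, and the rest were not searched. ETV5-201 has 1975 such stretches, 48.4% of all the 31-base stretches it holds. Among the ETV1 forms, ETV1-207 has 194, ETV1-205 has 28, ETV1-210 has 5 and ETV1-206 has 1. ETV4-202 and ETV4-211 have none, and ETV4-201 has 109. ETV1-206 and ETV1-210 thus have few stretches found in no other transcript, and of the 3 ETV4 transcripts of 484 residues ETV4-201 alone has any. ETV1-210 also reaches to chr7:13891228 at its 3′ end, against 13894381 for ETV1-206. Stretches held by some transcripts and not by others can also help to divide reads, and these were not counted.

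The transcript map shows where these forms begin. ETV1-209 starts at the most upstream position and ETV1-211 is 41 bases further in, and both are annotated as incomplete. ETV1-206 and ETV1-210 start 1478 and 1479 bases downstream of ETV1-209, ETV1-205 starts 1749 bases downstream and ETV1-207 starts 2552 bases downstream.

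**Figure D1:**
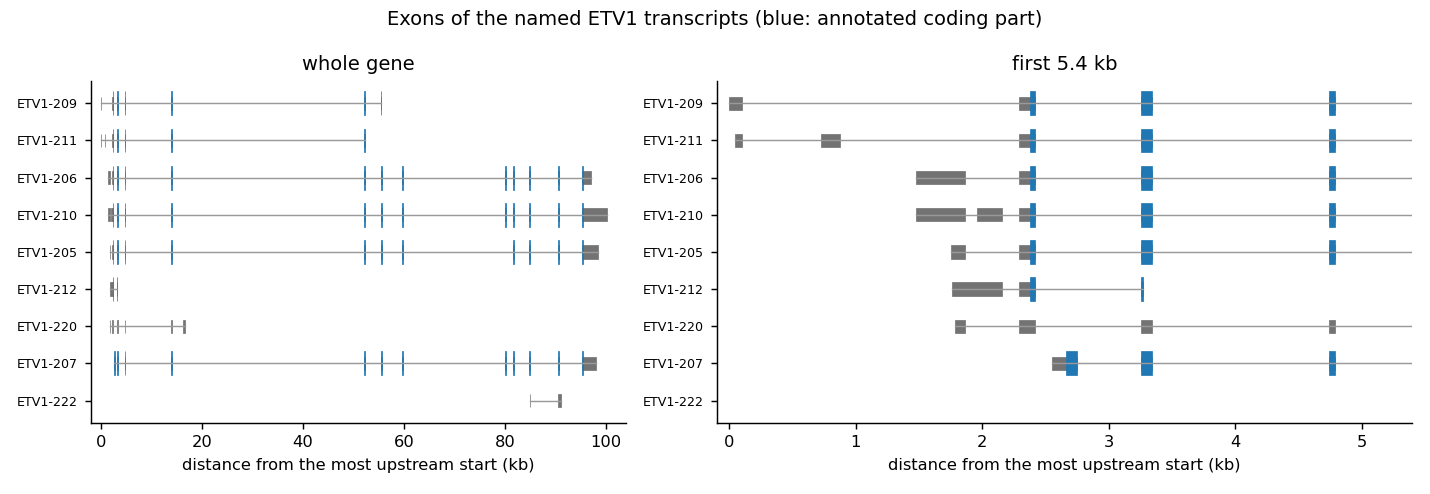
Exons of the 9 ETV1 transcripts described with values, by distance from the most upstream start in kb, for the whole gene and for its 5′ end; grey marks exons, blue the annotated coding part and the line the span of the transcript. ETV1-207 opens with a coding exon of its own, ETV1-210 has 1 more non-coding exon than ETV1-206, and ETV1-209, ETV1-211, ETV1-212, ETV1-220 and ETV1-222 cover part of the gene.

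ETV1 was the member with the largest fold between labelled ERF KD and WT. It was at 11.4 and 11.7 CPM in WT, 70.7 and 49.4 in labelled ERF KD, 11.8 and 11.4 in labelled CIC KO, and 19.5 and 22.4 in CIC-ERF codeletion. Labelled ERF KD was the highest, codeletion stood between, and WT and labelled CIC KO overlapped. In labelled ERF KD the level was 5.20-fold that of WT (log2 change 2.38 ± 0.20, SE; edgeR quasi-likelihood adjusted p = 0.00030, n = 2 per group). In labelled CIC KO the log2 change was 0.01 ± 0.20 (adjusted p = 1). In codeletion it was 0.86 ± 0.20 over WT and did not pass (adjusted p = 0.128). Codeletion was lower than labelled ERF KD by a log2 change of -1.52 ± 0.19 (adjusted p = 0.00215).

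ETV4 was at 17.4 and 23.5 CPM in WT, 65.5 and 51.0 in labelled ERF KD, 20.4 and 27.3 in labelled CIC KO, and 61.8 and 62.8 in codeletion. Labelled ERF KD and codeletion overlapped and lay above the other libraries, which overlapped each other. The level in labelled ERF KD was 2.85-fold that of WT (log2 change 1.51 ± 0.21, adjusted p = 0.00369). In labelled CIC KO the log2 change was 0.22 ± 0.21 (adjusted p = 1), and codeletion differed from labelled ERF KD by 0.10 ± 0.21 (adjusted p = 0.820). Codeletion was 3.05-fold WT (log2 change 1.61 ± 0.21), which did not pass at an adjusted p of 0.0590 and passed with the replicate letter as a block (adjusted p = 0.0139).

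ETV5 was at 21.8 and 28.1 CPM in WT, 109 and 82.6 in labelled ERF KD, 31.4 and 34.9 in labelled CIC KO, and 66.5 and 55.4 in codeletion. No library of a group reached into the range of another, in the order WT, labelled CIC KO, codeletion, labelled ERF KD. The level in labelled ERF KD was 3.85-fold that of WT (log2 change 1.95 ± 0.20, adjusted p = 0.00072). The log2 change in labelled CIC KO was 0.41 ± 0.19 (adjusted p = 1). Codeletion had a log2 change of 1.29 ± 0.19 over WT (adjusted p = 0.0613) and of -0.65 ± 0.19 from labelled ERF KD (adjusted p = 0.0621). Both passed with the replicate block, at adjusted p = 0.0204 and 0.0361.

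**Figure D2:**
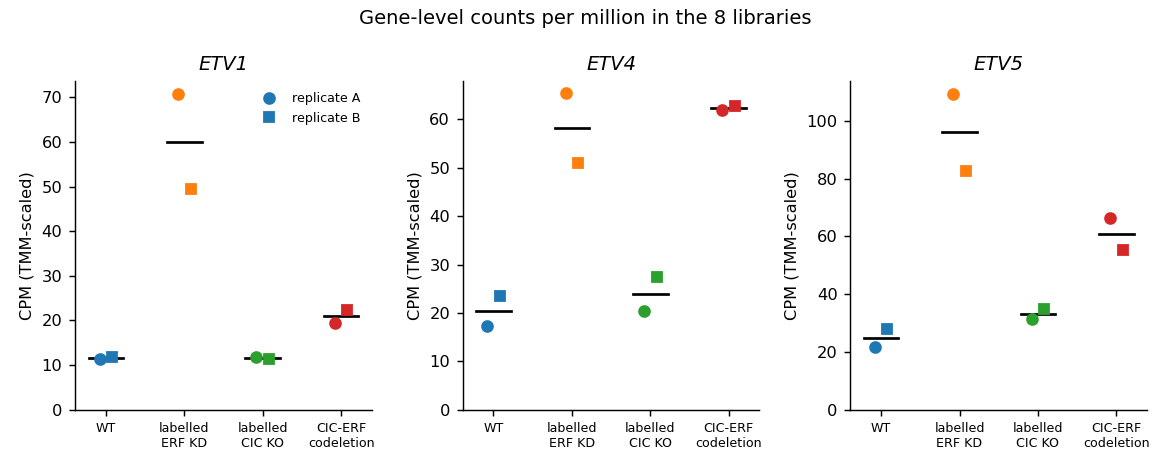
Gene-level CPM of the 3 members (vertical axis, scaled by TMM, a correction for library composition) in each of the 8 libraries; circles are replicate A, squares replicate B and bars the mean of 2. ETV1 is above 49 CPM in labelled ERF KD and below 23 in all other libraries, whereas ETV4 is above 50 in both labelled ERF KD and codeletion.

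All 3 members rose in labelled ERF KD, where 10.1% of the 14653 genes tested were called and 4.01% were called higher. In codeletion against WT none of the 3 was called by edgeR, in a comparison in which 0.0682% of genes were (10 genes, against 365 with the replicate block and 439 by DESeq2). Of all genes, 0.00682% were called higher and 0.0614% lower. All 3 members were under 0.05 before adjustment, where 13.3% of genes were, and all 3 passed in DESeq2. In labelled CIC KO none was called, nor was any gene (0%; 587 genes were under 0.05 before adjustment and DESeq2 called 26), and no member passed either of these. ETV1 was the single member called between codeletion and labelled ERF KD, where 11.7% of genes were called, 6.04% higher and 5.62% lower, and DESeq2 added ETV5. The 3 comparisons with WT share its 2 libraries, and both comparisons with labelled ERF KD share those 2 libraries.

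The rise of ETV1 in labelled ERF KD was spread over 4 complete coding transcripts. ETV1-207, with the alternative opening, had estimated counts of 116 and 85.4 in WT, 467 and 343 in labelled ERF KD, 52.2 and 98.0 in labelled CIC KO, and 185 and 140 in codeletion. It held the largest share of ETV1 counts in both WT libraries, 48.3% and 37.1%, and 31.7% and 34.5% in labelled ERF KD. Codeletion lay between WT and labelled ERF KD for this transcript, without overlap.

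The 477-residue form, ETV1-206 with ETV1-210, had summed counts of 43.6 and 71.5 in WT, 526 and 394 in labelled ERF KD, 126 and 42.7 in labelled CIC KO, and 159 and 102 in codeletion. Its share of ETV1 counts was 18.2% and 31.1% in WT and 35.8% and 39.6% in labelled ERF KD, while labelled CIC KO held the highest and the lowest share of all, 49.7% and 18%. Within it, ETV1-206 had 43.6 and 65.0 counts in WT, 286 and 218 in labelled ERF KD, 107 and 40.1 in labelled CIC KO, and 99.4 and 77.9 in codeletion. ETV1-210, which has 1 more non-coding exon and a longer 3′ end, had 0 and 6.48 counts in WT, 240 and 176 in labelled ERF KD, 19 and 2.61 in labelled CIC KO, and 59.4 and 24.2 in codeletion. With 1 WT library at 0, its fitted change depends on the offset added to counts and is no bound.

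ETV1-205, which skips the 69-base exon, had 10.3 and 47.4 counts in WT, 350 and 170 in labelled ERF KD, 61.8 and 39.2 in labelled CIC KO, and 64 and 99.5 in codeletion. Its WT libraries differed from each other more than those of ETV1-207 did, and its share of the gene was 4.32% and 20.6% there. ETV1-201 and ETV1-204, the form of 459 residues without a 54-base exon, summed to at most 9.47 counts in any library, and ETV1-202 and ETV1-208 were at 0 in all 8. ETV1-203 had 19 counts in 1 library of labelled ERF KD and 0 elsewhere.

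The 7 ETV1 transcripts that passed the count filter all had positive log2 changes in labelled ERF KD against WT, from 0.36 for ETV1-214 to 6.07 for ETV1-210. The filter keeps transcripts that are high in any group, so this shared sign is given only as a description. The 4 main forms had log2 changes of 2.06 ± 0.40 for ETV1-207, 2.24 ± 0.51 for ETV1-206, 3.19 ± 0.84 for ETV1-205 and 6.07 ± 1.37 for ETV1-210. None of these passed over the 67599 transcripts tested (edgeR adjusted p from 0.115 to 0.239), although each was under 0.05 before adjustment. DESeq2 called all 4, with log2 changes between 2.09 and 6.14, where it called 2697 of 62356 transcripts. Codeletion against WT gave 0.72 ± 0.39 for ETV1-207, 0.71 ± 0.49 for ETV1-206, 1.57 ± 0.80 for ETV1-205 and 3.67 ± 1.28 for ETV1-210, of which none passed.

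ETV4 was carried by its 484-residue form. The summed counts of ETV4-201, ETV4-202 and ETV4-211 were 201 and 182 in WT, 1104 and 610 in labelled ERF KD, 375 and 386 in labelled CIC KO, and 1071 and 728 in codeletion. WT was below all 6 other libraries. The share of ETV4 counts held by this form was 54.9% and 39.6% in WT, 80.9% and 59.4% in labelled ERF KD, 85.5% and 68.0% in labelled CIC KO, and 73.3% and 65.3% in codeletion. All 6 altered libraries thus had a higher share than both WT libraries.

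The 445-residue form without the amino-terminal stretch took the opposite course in share. ETV4-203 and ETV4-205 together had 138 and 209 counts in WT, 78.5 and 288 in labelled ERF KD, 22.6 and 112 in labelled CIC KO, and 237 and 292 in codeletion. Their share was 37.8% and 45.2% in WT and between 5.15% and 28.0% in the 6 altered libraries. The counts overlapped between WT and labelled ERF KD, whose 2 libraries lay on either side of WT.

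Single ETV4 transcripts swung between libraries of the same group. ETV4-202 had 87.8 counts in WT replicate A and was at 0.01 in replicate B, and ETV4-203 had 86.5 and 192. In labelled ERF KD, ETV4-203 was near 0 in replicate A and at 143 in replicate B. ETV4-202 has no 31-base stretch of its own and ETV4-203 has 26, and what part the division of reads has in these swings was not tested. The 26 were counted on the GENCODE v29 sequence of ETV4-203, which has 2147 bases. In the deposited data ETV4-203 has 2024 bases, so the sequence to which reads were assigned differs. ETV4-201 was steadier, with 113 and 182 counts in WT, 406 and 238 in labelled ERF KD, 181 and 178 in labelled CIC KO, and 536 and 400 in codeletion. ETV4-211 was at 0 in both WT libraries, at 33.9 and 0 counts in labelled ERF KD, at 15.6 and 32.3 in labelled CIC KO, and at 54.8 and 22.8 in codeletion.

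ETV4-204, which skips the 162-base exon, had 13.9 and 25.1 counts in WT, 96.1 and 37.7 in labelled ERF KD, 16.9 and 26.7 in labelled CIC KO, and 51.6 and 27.9 in codeletion. It never held over 7.05% of ETV4 counts. The short ETV4-208, annotated to encode 207 residues, had 5.10 and 24.3 counts in WT, 62.9 and 54.8 in labelled ERF KD, 13.4 and 27.5 in labelled CIC KO, and 57.8 and 39.5 in codeletion. The retained-intron transcripts ETV4-206 and ETV4-209 did not exceed 23.3 and 20.3 counts, both in codeletion replicate A, and the other 2 ETV4 transcripts did not exceed 4.03. None of the 8 ETV4 transcripts tested passed in any of the 4 comparisons, the lowest adjusted p being 0.334 for ETV4-201 in labelled ERF KD over WT. With the 3 transcripts of 484 residues summed, an alternative added after the data were seen, the rise in labelled ERF KD passed (log2 change 2.21, edgeR adjusted p = 0.0376).

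ETV5 differed from the others in resting on 1 transcript. ETV5-201 had 428 and 494 counts in WT, 2181 and 1582 in labelled ERF KD, 617 and 662 in labelled CIC KO, and 1522 and 919 in codeletion. The groups did not overlap, and their order was that of the gene as a whole. Complete coding ETV5 transcripts held between 89.7% and 96.9% of the gene's counts in every library. ETV5-201 was the sole member transcript called, at 4.18-fold in labelled ERF KD over WT (log2 change 2.06 ± 0.24, edgeR adjusted p = 0.0278), where 0.438% of transcripts were called. Its log2 change was 0.44 ± 0.23 in labelled CIC KO and 1.40 ± 0.23 in codeletion over WT (adjusted p = 1 and 0.544).

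The call for ETV5-201 had little margin. Leaving out any of the 8 libraries in turn took the adjusted p to between 0.0652 and 0.180, with log2 changes from 1.80 to 2.28, and with the replicate block it was 0.0476. ETV5-210, a short non-coding transcript, had 28.7 and 47.4 counts in WT, 63.2 and 77.8 in labelled ERF KD, 44.5 and 49.9 in labelled CIC KO, and 37.7 and 42.8 in codeletion. It held most of the remaining ETV5 counts. ETV5-203, an incomplete coding transcript, ranged from 0 to 20.9 counts and was at 0 in 3 of the 8 libraries. ETV5-214 had at most 1.04 counts, and the other 10 ETV5 transcripts had at most 7.29 in any library.

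**Figure D3:**
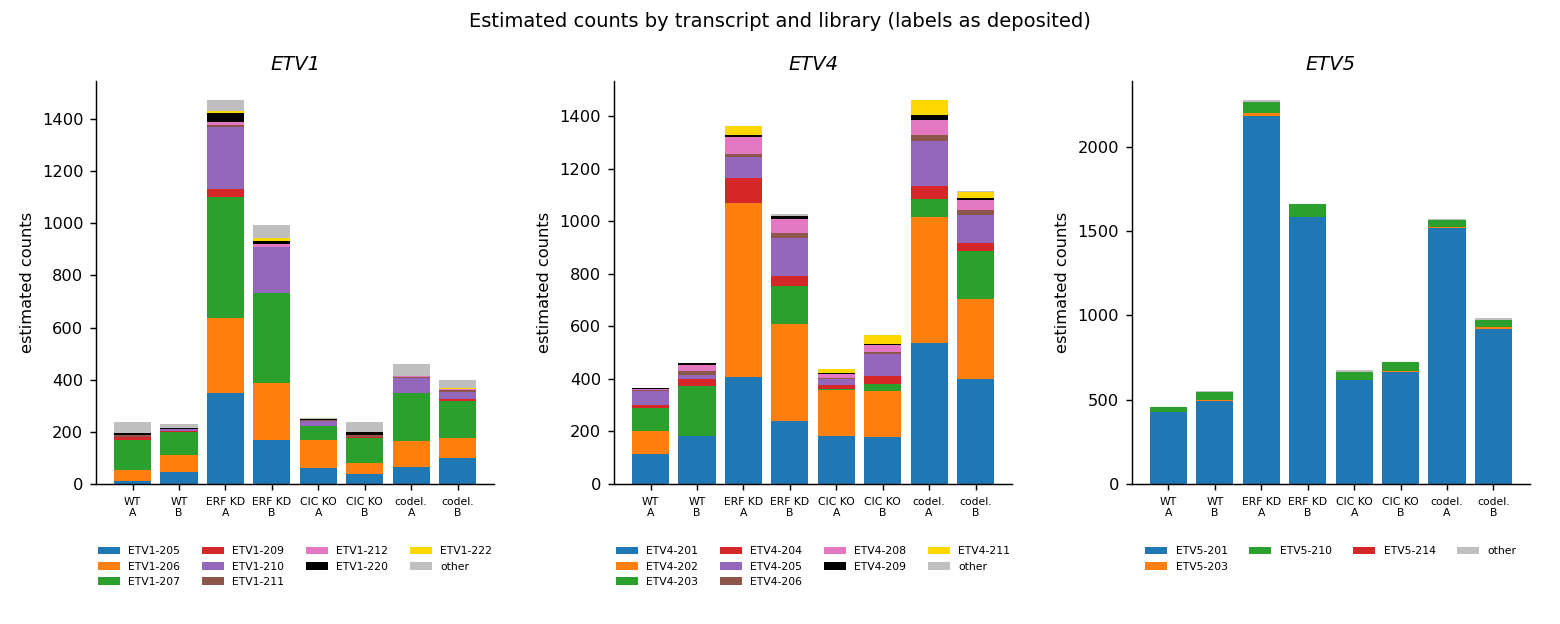
Estimated counts of each member by transcript (colours; grey for the transcripts under 1 TPM on average in every group) in the 8 libraries, stacked, so that bar height is the gene's count. ETV1 is divided among 4 main transcripts, ETV4 changes its division from library to library, and ETV5 is nearly all ETV5-201.

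Of the 48 transcripts, 18 passed the count filter. In labelled ERF KD against WT edgeR called 1 of 18 (0.438% of all transcripts), 10 were under 0.05 before adjustment (10.3% of all), and DESeq2 called 5. Their median log2 change was 2.0 and 17 were positive. In labelled CIC KO against WT edgeR called 0 (0% of all transcripts), 1 was under 0.05 before adjustment (3.24% of all), and DESeq2 called 0. In codeletion against WT edgeR called 0 (0% of all), 6 were under 0.05 before adjustment (6.15% of all), and DESeq2 called 2, ETV4-201 and ETV5-201. Between codeletion and labelled ERF KD edgeR called 0 (0.528% of all), 4 were under 0.05 before adjustment (10.4% of all), and DESeq2 called 0. Over all transcripts, DESeq2 called 2697 of 62356, 218 of 57114, 625 of 57114 and 2816 of 62356 in these 4 comparisons, in that order. The filter keeps transcripts that are high in any group, so the counts of member transcripts describe the 18 and not all 48.

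**Figure D4:**
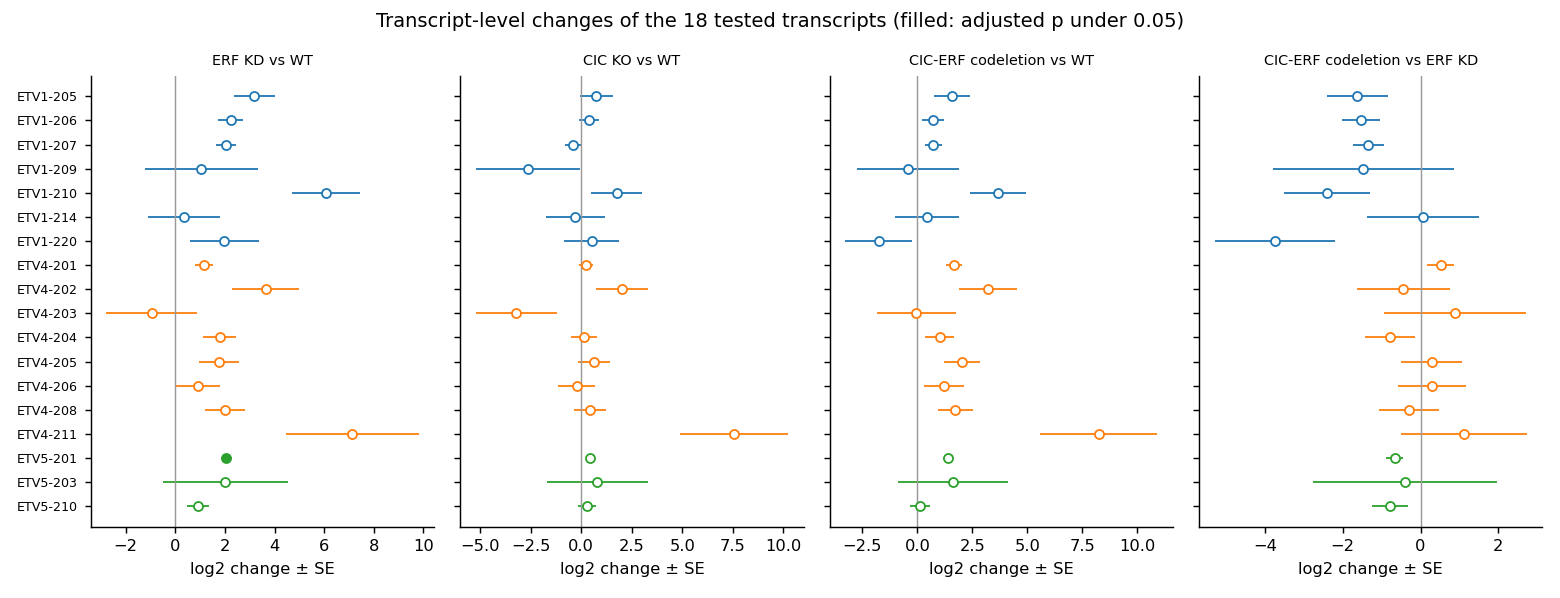
Log2 change (horizontal axis, points) with its standard error (bars) of the 18 tested transcripts in 4 comparisons, coloured by gene; the horizontal scales differ between panels and a filled point marks an adjusted p under 0.05. ETV5-201 in labelled ERF KD is the single filled point, and the values of 7.13, 7.58 and 8.25 for ETV4-211 over WT come from WT libraries at 0 and are no bound.

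Whether a transcript took another share of its gene was tested apart from the gene's level. The edgeR usage test made too many false calls on simulated data, so its calls are given as counts and not read as shifts in usage. It called no member transcript in any of the 4 comparisons, and 0.232%, 0.163%, 0.0949% and 0.204% of the 56923 transcripts in labelled ERF KD, labelled CIC KO and codeletion against WT and in codeletion against labelled ERF KD. In that order 2, 2, 2 and 0 member transcripts were under 0.05 before adjustment, where 4.33%, 3.92%, 4.14% and 4.56% of all transcripts were. Without WT replicate A, the WT library that holds nearly all its WT counts, the usage of ETV4-202 was called in all 3 comparisons with WT, with usage log2 changes of 7.41, 7.19 and 7.04, which rest on a lone WT library near 0 and are no bound. With all libraries the lowest adjusted p was 0.462, for ETV1-210 in labelled ERF KD, with a usage log2 change of 2.49 relative to ETV1 as a whole. A test that gives each transcript its own spread, added after the data were seen, called no member transcript either and none of all transcripts (0%). Before adjustment 1, 1, 1 and 0 member transcripts were under 0.05 in it, where 5.79%, 3.55%, 4.85% and 5.53% of all transcripts were. The spread between libraries of a group was large for transcripts (a biological coefficient of variation of 0.608, against 0.197 for genes), so a shift that does not pass is not shown to be absent.

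The comparison of ETV1 in counts with ETV1 in TPM gave different sizes of change. In TPM, which divides counts by effective length and scales each library to a fixed sum, ETV1 was at 12 and 7.48 in WT, 46.2 and 26.9 in labelled ERF KD, 7.53 and 8.32 in labelled CIC KO, and 10.3 and 14.7 in codeletion. WT and codeletion overlapped in TPM, whereas in CPM they did not. The mean log2 change in labelled ERF KD over WT was 2.31 in unscaled CPM, a 4.96-fold difference, and 1.90 in TPM, a 3.73-fold difference. In codeletion over WT it was 0.79 in CPM and 0.38 in TPM, or 1.73-fold and 1.3-fold. In labelled CIC KO it was -0.01 in CPM and -0.26 in TPM.

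These gaps follow by arithmetic from the mean effective length, the average length of the gene's transcripts weighted by their abundance. The log2 change in TPM equals that in CPM, minus the log2 change of this mean length, plus that of the whole library's mean length. For ETV1 the mean effective length was 1403 and 2104 bases in WT, 2176 and 2463 in labelled ERF KD, 2238 and 1751 in labelled CIC KO, and 2700 and 2006 in codeletion. Its log2 change over WT was 0.43 in labelled ERF KD, 0.20 in labelled CIC KO and 0.44 in codeletion. The library term was 0.02, -0.04 and 0.02, so nearly the whole gap lay in the gene's own length. Between codeletion and labelled ERF KD the length term was 0.01, and CPM and TPM gave the same log2 change of -1.52. That length term was -0.21 without codeletion replicate A and 0.22 without codeletion replicate B, so the closeness of the 2 scales depended on the libraries used.

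WT replicate A, at 1403 bases, was the shortest of the 8. Without it the log2 change in mean length of labelled ERF KD over WT was 0.14, and without WT replicate B it was 0.72. For labelled CIC KO over WT it was -0.087 with WT replicate A left out and 0.50 with replicate B left out, so the sign of the 0.20 above depended on 1 library. The size of the gap between counts and TPM thus depended on which WT library was used, although the gene's counts of 239 and 230 there were close.

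Short transcripts held few of the ETV1 counts and much of the ETV1 TPM. The 12 ETV1 transcripts with a mean effective length under 1000 bases, a limit chosen after the values were seen, held 39.9 and 13.6 counts in WT, 94.0 and 46.0 in labelled ERF KD, 13.8 and 20.2 in labelled CIC KO, and 9.80 and 26.7 in codeletion. That was 16.7% and 5.92% of ETV1 counts in WT but 61.2% and 39.6% of ETV1 TPM. In labelled ERF KD the same transcripts held 6.39% and 4.63% of counts and 43.8% and 34.9% of TPM. Over all 8 libraries their share of ETV1 counts was 2.13% to 16.7% and their share of TPM 18.9% to 61.2%.

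ETV1-209, whose mean effective length was 298 bases, illustrates the weight of such a transcript. In WT replicate A its 9.41 counts came to 2.08 TPM, while the 116 counts of ETV1-207, with 3618 bases, came to 2.22 TPM. ETV1-209 then had 5.4 counts in WT replicate B, 28.3 and 0 in labelled ERF KD, 0 and 1.61 in labelled CIC KO, and 0 and 9.42 in codeletion. ETV1-211 had 9.13 and 0 counts in WT, and 7.30 at the highest elsewhere. ETV1-220 had 7.61 and 3.90 in WT, 33.0 and 13 in labelled ERF KD, 2.88 and 13.9 in labelled CIC KO, and 0 and 2.68 in codeletion. ETV1-212 was at 0 in WT, was at 14.1 and 10.4 in labelled ERF KD, and did not exceed 4.35 in the other groups. ETV1-222 was at 0 and 1 in WT, at 9 and 9 in labelled ERF KD, at 0 in labelled CIC KO and at 0 and 1 in codeletion. The other 14 ETV1 transcripts held 1.70% to 18.2% of the gene's counts, and 4 of them were at 0 in all libraries. In WT replicate A, 1 count of ETV1-209 was worth 0.221 TPM and 1 count of ETV1-207 was worth 0.0192 TPM.

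The longer transcripts taken alone gave changes over WT close to those in counts. The 11 ETV1 transcripts of 1000 bases or more summed to 4.65 and 4.52 TPM in WT, 26 and 17.5 in labelled ERF KD, 4.64 and 4.38 in labelled CIC KO, and 8.34 and 8.38 in codeletion. Codeletion and WT no longer overlapped. The fold over WT became 4.65 in labelled ERF KD, 0.984 in labelled CIC KO and 1.82 in codeletion, against 4.96, 0.992 and 1.73 in CPM. Between codeletion and labelled ERF KD it was 0.392, against 0.350 in CPM.

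**Figure D5:**
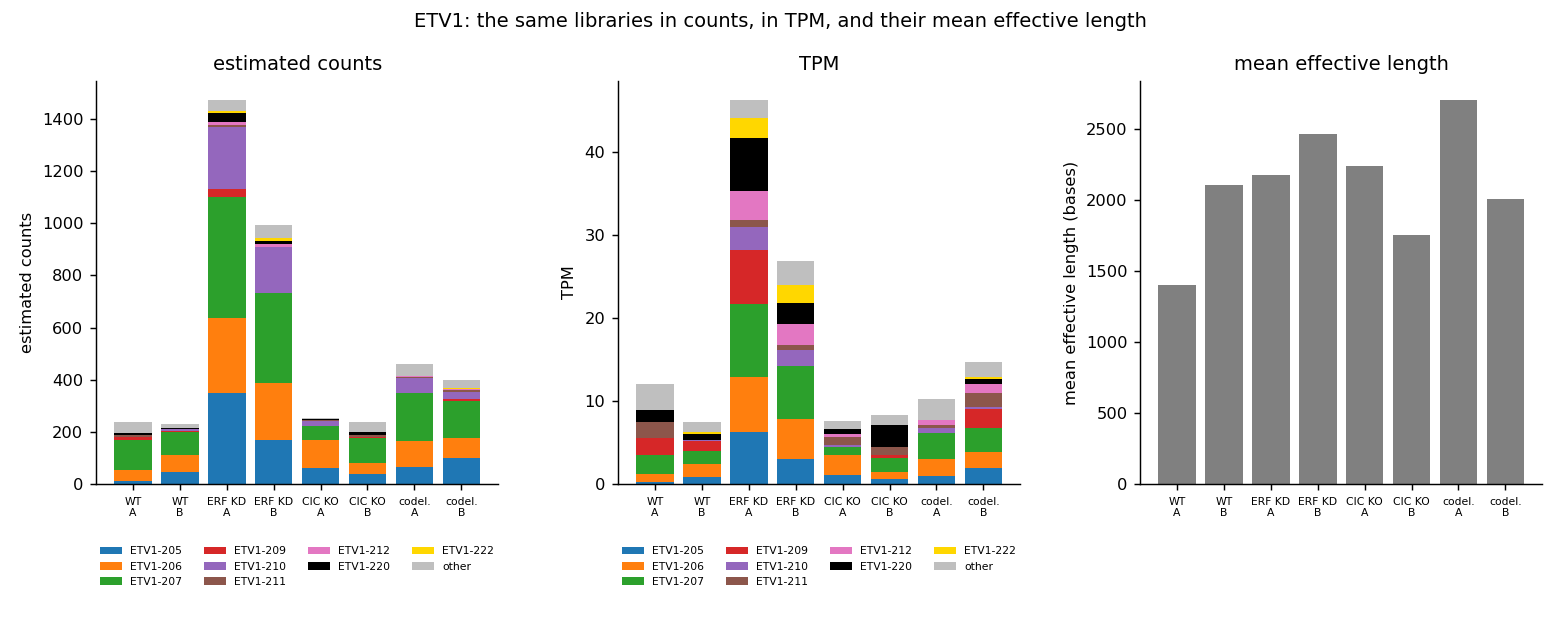
ETV1 in the 8 libraries as estimated counts by transcript, as TPM by transcript and as mean effective length in bases (vertical axes; colours as listed under each panel). ETV1-209, ETV1-211, ETV1-212, ETV1-220 and ETV1-222 are thin bands in counts and broad bands in TPM, and the mean length is lowest, 1403 bases, in WT replicate A.

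In labelled ERF KD and codeletion over WT, the gap between scales was smaller for ETV4 and ETV5 than for ETV1. ETV4 had log2 changes of 1.47 in CPM and 1.51 in TPM in labelled ERF KD over WT, and of 1.56 and 1.55 in codeletion, with mean effective lengths between 1627 and 1836 bases in every library. ETV5 had 1.90 in CPM and 1.65 in TPM in labelled ERF KD, and 1.23 and 1.03 in codeletion. Its 12 short transcripts held 3.09% to 10.3% of counts and 24.2% to 53.8% of TPM, and with the complete coding transcripts alone the TPM changes were 1.99 and 1.31. The log2 changes in CPM and TPM in labelled CIC KO over WT were 0.20 and 0.16 for ETV4 and 0.40 and 0.50 for ETV5. Between codeletion and labelled ERF KD they were 0.09 and 0.04 for ETV4 and -0.66 and -0.62 for ETV5, gaps that were larger than that of ETV1 there.

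The window upstream of the most upstream ETV1 start is shown because it holds a CIC-type octamer. The RefSeq table of gene starts (GRCh38.p14) gave 6 windows of 300 bases for ETV1. TGAATGGA was searched for on both strands and found in 1 of the 6 and in 1.03% of all 35116 windows, at chr7:13991543-13991550, 125 bases before the start that ETV1-201 and ETV1-209 share. TGAATGAA, TCAATGAA, TGAATAAA and TCAATAAA were in none of the 6 and in 1.66%, 0.718%, 1.3% and 1.11% of all windows. GGAA was in all 6, and in 95.5% of all windows. In the upstream 250 bases, chr7:13991426-13991675, minus strand, capitals mark TGAATGGA and each GGAA or its complement TTCC; no motif overlaps another.
ETV1 upstream: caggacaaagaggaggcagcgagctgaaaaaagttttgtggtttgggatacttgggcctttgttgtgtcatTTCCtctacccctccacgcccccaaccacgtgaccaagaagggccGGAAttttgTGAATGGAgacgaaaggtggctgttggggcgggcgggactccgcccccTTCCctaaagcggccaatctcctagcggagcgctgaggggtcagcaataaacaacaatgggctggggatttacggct

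Transcripts that start at that position held few ETV1 counts. ETV1-209 did not exceed 28.3 counts and ETV1-201 did not exceed 4.38. ETV1-211 and ETV1-204, which start 41 and 176 bases further in, did not exceed 9.13 and 9.47. ETV1-201 has 0 31-base stretches of its own and ETV1-209 has 27. These counts thus rest on how reads were divided and do not measure how much the start is used. The 4 main forms start 1478 to 2552 bases further in.

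Other genes known to be repressed by CIC were followed beside the PEA3 genes. Of 7 such genes in a list (SPRY2 and SPRY4, SPRED1 and SPRED2, and DUSP4, DUSP5 and DUSP6), all feedback inhibitors of MAP kinase signalling, 2 rose in labelled ERF KD, where 4.01% of all genes did. These were SPRY2 (1.90-fold, edgeR adjusted p = 0.00803) and SPRED1 (1.57-fold, adjusted p = 0.0401). Before adjustment 4 of the 7 were under 0.05, where 24.8% of genes were. DESeq2 called 4 of the 7, and 2063 genes in all. The median log2 change of the 7 was 0.65, against 0.01 over all genes and 1.95 for the PEA3 genes. In labelled CIC KO and in codeletion against WT edgeR called none of the 7 (0% and 0.0682% of all genes). Their medians were 0.40 and 0.48, with 2 and 5 under 0.05 before adjustment, where 4.01% and 13.3% of genes were. DESeq2 called 0 and 2 of the 7, and 26 and 439 genes in all. SPRY4 was at 6.98 and 11.6 CPM in WT and at 24.8 and 18.6 in codeletion, a log2 change of 1.23 ± 0.32 (adjusted p = 0.182). SPRY2 fell from labelled ERF KD to codeletion by 0.68 on the log2 scale (edgeR adjusted p = 0.0266), where 5.62% of genes were called lower. It was the single call among the 7 there. In either direction, 4 of the 7 were under 0.05 before adjustment, where 26.4% of genes were.

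The ligase that degrades PEA3 proteins was also looked at, since protein can change without messenger RNA. COP1, the subunit that recognises PEA3 factors, DET1, and the scaffold genes DDB1 and CUL4A were called by edgeR in none of the 4 comparisons, nor by DESeq2. Of all genes, edgeR called 10.1%, 0% and 0.0682% in labelled ERF KD, labelled CIC KO and codeletion over WT. Before adjustment 0 of the 4 were under 0.05 in these, where 24.8%, 4.01% and 13.3% of genes were. Between codeletion and labelled ERF KD edgeR called 11.7% of genes. COP1 and DET1 were under 0.05 before adjustment there, where 26.4% of genes were. COP1 was at 49.8 and 54.3 CPM in WT and at 45.1 and 48.2 in labelled ERF KD.

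The epithelial and mesenchymal state of the cells moved with the labelled ERF KD libraries. Of 6 epithelial markers, edgeR called 5 lower there, where 6.07% of all genes were. Among them were CDH1, from 362 and 385 CPM in WT to 17.6 and 17.6, and EPCAM, from 278 and 314 to 41.1 and 29.4. Of 6 mesenchymal markers, 3 were called higher, where 4.01% of all genes were, among them VIM, from 105 and 211 CPM to 1497 and 1953. COL1A1, COL1A2 and PDGFRB were not called. The summed epithelial level was 1648 to 2020 TPM in labelled ERF KD, 3719 to 4149 in WT and 3807 to 4573 in the other groups. The summed mesenchymal level was 145 to 219 TPM in WT, 165 to 214 in labelled CIC KO and 85.6 to 140 in codeletion, which lay below WT. In labelled ERF KD it was 1411 to 1705 TPM. Of that sum in labelled ERF KD, VIM alone made up 1284 and 1592 TPM. No defining marker on either list was at 0 in all libraries. In bulk RNA a change in the mix of cells and a change in RNA per cell cannot be told apart, and the part of this shift in the PEA3 changes was not tested. Of the immune markers, PTPRC was at 1.09 CPM at the highest and CD3E at 0.186, while CD68, which other cells also express, ranged from 5.54 to 51.8. Of the endothelial markers, PECAM1 did not exceed 2.45 CPM and VWF 0.889, while CDH5 was at 10.3 and 5.15 in WT and at 65.4 and 15.0 in codeletion. None of these was called in any comparison with WT.

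The genes whose level followed each member most closely over the 8 libraries were taken from 12604 protein-coding genes, as a description. For ETV1 they were ALG14, GLRX and FERMT2 (Pearson r of log2 CPM 0.985, 0.985 and 0.981). For ETV4 they were LIN52, EIF4A3 and HNRNPK (0.985, 0.977 and 0.976), and for ETV5 STK25, PDE9A and LACTB (0.987, 0.981 and 0.980). Between members r was 0.929 for ETV1 with ETV5, 0.925 for ETV4 with ETV5 and 0.781 for ETV1 with ETV4. The 8 points fall into 4 groups, so these values largely restate differences between groups.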

How the data were processed

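RNA-seq was measured in 8 PNT2 libraries, grouped by their labels into 4 groups of 2. The deposited tables hold, per transcript, effective length, estimated counts and TPM (abundance by effective length), in kallisto's format. The study's methods name RSEM and log2 values, and per the submitters' processing notes the build was hg19; the version of kallisto, the annotation and strand use are not given in the sources used here. The authors deposited the estimated counts unnormalized, 19477473 to 25813157 per library, and TPM scaled within each library. Transcript identifiers were matched to GENCODE release 29 (GRCh38), which held 153245 (85.0%) of them, 93.1% at the same length. Coordinates come from that annotation.

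Estimated counts were rounded, as transcripts and as sums per gene, and tested with edgeR 4.0.16 (quasi-likelihood, TMM, filterByExpr, all 8 libraries in a single fit, Benjamini-Hochberg, threshold 0.05). Adjusted p-values in the text are from this test unless another tool is named. Transcript usage was tested with edgeR's diffSpliceDGE, which pools the spread over a gene's transcripts. Alternatives used DESeq2 1.42.0, limma 3.58.1 on log2(TPM + 1) and log2(TPM + 0.1), other filters and samples, and 3 choices added after the data were seen: complete coding transcripts only, identical coding exons summed, and usage with each transcript's own spread. The edgeR gene, transcript and usage tests, and usage with each transcript's own spread, were run on simulated data. There diffSpliceDGE made too many false calls. Of simulated 4-fold changes the transcript test recovered 17.5%, diffSpliceDGE 6.5% and usage with own spread 5%. For 16-fold changes these were 87%, 49.5% and 46.5%. The changed transcripts were drawn from those with many counts, so recovery for transcripts with few counts was not measured. The other alternatives, DESeq2 and limma among them, were not run on simulated data. Transcripts were named with values if their mean was at least 1 TPM in any group or they passed a test, and the few others named were chosen after their values were seen. The members and lists were chosen with earlier results of these data known.

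The letters A and B were taken to pair libraries, from the data and not the labels. The A minus B differences over genes correlated between groups with r from 0.136 to 0.335 in 6 of 6 pairs of groups. The main tests did not use this pairing, which enters only the alternative with the replicate letter as a block. Replicates differed by more than sampling noise, so each counted separately. The intervals that counting alone would give are not used, since division of reads between transcripts adds error that the tables do not hold.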

Additional observations from a re-analysis of the deposited data

Results flagged for a closer look

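The change of ETV1 over WT differed between lines. It was 2.38 on the log2 scale in labelled ERF KD and 0.86 in CIC-ERF codeletion, and the difference of -1.52 passed its own test (edgeR adjusted p = 0.00215). Both codeletion libraries, at 19.5 and 22.4 CPM, lay below both libraries of labelled ERF KD, at 70.7 and 49.4 CPM. Without any library in turn the difference was between -1.75 and -1.24, with adjusted p from 0.00159 to 0.0280. The summed epithelial marker level was 1648 to 2020 TPM in labelled ERF KD and 3807 to 4470 TPM in codeletion, and its part in the difference was not tested.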

How the results depend on the processing

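The rise of ETV1, ETV4 and ETV5 in labelled ERF KD over WT and the lower ETV1 in codeletion than in labelled ERF KD kept their direction and their call under all alternatives run. Without each library in turn, the log2 change in labelled ERF KD over WT was 2.10 to 2.62 for ETV1, 1.3 to 1.75 for ETV4 and 1.73 to 2.14 for ETV5, and ETV1 in codeletion against labelled ERF KD was -1.75 to -1.24. Other calls depended on the setting, and the cause was not tested. Codeletion over WT passed with DESeq2 with a log2 change of 0.86 (ETV1), 1.60 (ETV4) and 1.29 (ETV5) (adjusted p = 0.0215, 2.90e-08 and 5.16e-06). It also passed with no filter, at 0.86, 1.61 and 1.29. In codeletion over WT, DESeq2 called 439 of 14368 genes, no filter 768 of 22195 and the replicate block 365 of 14653. The main test called 10 of 14653 there. ETV4 in codeletion over WT also passed with only the groups compared (1.60), and with the replicate block ETV4 (1.62) and ETV5 (1.29) passed. ETV5 in codeletion against labelled ERF KD passed with DESeq2 (-0.66), no filter (-0.66) and the replicate block (-0.65). These settings called 2312 of 14653, 2798 of 22195 and 3014 of 14653 genes there, in that order. Without each library the change of ETV5 was -0.84 to -0.44, the -0.84 being without labelled ERF KD replicate B. The replicate block changed no other call of a member gene or transcript.

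The change of ETV1 in labelled CIC KO, which was not called, turned negative under limma on log2(TPM + 0.1) (-0.26), under limma on log2(TPM + 1) (-0.24) and when counts were scaled by length (-0.24), and was -0.017 to 0.033 without each library. ETV4 was -0.0062 to 0.46 in labelled CIC KO and -0.072 to 0.29 in codeletion against labelled ERF KD without each library. The single member transcript called in labelled ERF KD became 5 with DESeq2, 3 with no filter and 2 with limma on log2(TPM + 1). It became 2 with identical coding exons summed and 0 with only the groups compared. Over all transcripts there, DESeq2 called 2697 of 62356, no filter 914 of 129551 and limma on log2(TPM + 1) 450 of 67599. With identical coding exons summed 363 of 63588 were called, and the main test called 296 of 67599. In codeletion over WT, DESeq2 called 2. Usage calls without each library were 0 to 1 in labelled ERF KD, labelled CIC KO and codeletion over WT, the single call being ETV4-202 without WT replicate A. The ETV1 mean effective length kept a longer value than WT in labelled ERF KD and codeletion, with log2 changes of 0.14 to 0.72 and 0.15 to 0.73 without each library. It was -0.087 to 0.50 in labelled CIC KO over WT and in codeletion against labelled ERF KD -0.21 to 0.22, so neither kept its direction. Depth limits the short transcripts, which in ETV1 summed to 9.80 to 94.0 counts a library.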

Other observations

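ETV1-214, an ETV1 transcript annotated as a target of nonsense-mediated decay, had 25.6 and 12.2 estimated counts in WT, 28.9 and 17.9 in labelled ERF KD, 0 and 30.3 in labelled CIC KO, and 29.5 and 19.9 in codeletion, and its usage test in labelled ERF KD did not separate it from the gene (edgeR unadjusted p = 0.152, adjusted p = 1). Its share of ETV1 counts was 10.7% and 5.30% in WT and 1.97% and 1.80% in labelled ERF KD, while labelled CIC KO held the lowest and the highest share, 0% and 12.8%. It was chosen after its values were seen.

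Complete coding transcripts held 72.6% and 88.8% of ETV1 counts in WT, 91.2% and 93.6% in labelled ERF KD, 94.6% and 78.7% in labelled CIC KO, and 90.7% and 88.3% in codeletion. For ETV4 the share was 95.5% to 98.3% in all 8 libraries.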
